A study of Mus musculus with 6 samples.

Results

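Of the 45703 genes in the deposited table, 5 channel genes of 2 families were examined: Kcnq3 and Kcnq5, which encode subunits of the M-current, and Hcn2, Hcn3 and Hcn4, which encode subunits of pacemaker channels. They were chosen by symbol, and all 5 were present. The libraries came from 6 primary cell cultures of dorsal root ganglia, which lie along the spinal cord and hold the somata of sensory neurons wrapped by glia. All 6 cultures form 1 group: wild type C57BL/6 mice aged 4 to 6 weeks, cells kept for 7 days in a medium with 10% fetal calf serum, EGF (10 ng/ml) and FGF (10 ng/ml), and RNA taken from 2 dishes per culture. With no second condition, the genes could be compared with each other within libraries and across the 6 cultures. The labels give the cultures as biological replicates but name no animals. The p-values of the permutation tests therefore set a difference or relation against the spread between these cultures. Those of the chi-square test set that spread against counting noise.

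KCNQ channels open slowly when a neuron depolarises and pass an outward potassium current, which holds the membrane back from repetitive firing. Receptors coupled to Gq close them by using up PIP2, the membrane lipid that keeps them open, and this closure gave the M-current its name, after muscarinic receptors. HCN channels do the opposite: they open on hyperpolarisation, pass an inward cation current and are pushed towards opening by cyclic AMP, and in sensory neurons they are studied for their part in repetitive firing and pain. In both families a channel is built of several subunits, and members of a family can mix.

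The libraries held 20070639 to 22968642 counts. Pairs of libraries differed by more than sampling noise: the median chi-square statistic per gene of a pair lay between 2.10 and 6.86, against 0.455 for counting noise. Markers of several cell types were present. All 12 neuron markers, all 7 glial lineage markers and all 6 fibroblast markers were at or above 1 CPM in all 6 libraries, CPM being a gene's count relative to its library total in the usual scaling. This also held for 7 of 8 sensory subtype, 4 of 5 mural, 4 of 6 macrophage and 1 of 4 endothelial markers. The summed level of the neuron markers ranged from 1160 to 2570 CPM, that of the glial lineage markers from 5500 to 8000 CPM and that of the fibroblast markers from 3340 to 14000 CPM. These are bulk samples, so fewer cells of a type and less RNA per cell cannot be told apart.

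The coding stretch around the ion selectivity filter is shown for Hcn2 and Hcn4, because it is among the most conserved parts of these channels and shows how far reads of relatives can be told apart. Capitals mark the codons for glycine, tyrosine and glycine, which line the narrowest part of the pore, with 27 bases on each side. The sequences are from GENCODE mouse transcripts (release M21, GRCm38) and run 5′ to 3′ on the coding strand.
Hcn2: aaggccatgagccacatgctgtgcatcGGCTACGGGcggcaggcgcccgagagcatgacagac
Hcn4: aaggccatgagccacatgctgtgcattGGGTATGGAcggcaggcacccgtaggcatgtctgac
The Hcn2 stretch lies in 1 coding exon at chr10:79728932-79728994 on the plus strand, and the Hcn4 stretch in 1 coding exon at chr9:58855564-58855626 on the plus strand. Hcn2 and Hcn4 had the same base at 53 of 63 positions.

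Over whole transcripts, the longest run of identical bases between 2 of the 5 genes was 33, between Hcn2 and Hcn3. It was 32 for Hcn2 with Hcn4 and for Hcn3 with Hcn4, and 14 for Kcnq3 with Kcnq5. Reads longer than such a run differ between the pair at 1 base or more. The counts of Kcnq3, Hcn2, Hcn3 and Hcn4 were whole numbers in all 6 libraries, and that of Kcnq5 was fractional in 1 library. A fraction can arise when a read matching several places is divided among them.

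Kcnq5 (chromosome 1, 21398399 to 21962650, minus strand, GRCm38.p6), whose subunit forms M-type channels alone or with KCNQ3, had the most counts of the 5 genes. Its level in replicates 1 to 6 was 25.3, 18.4, 12.8, 12.6, 9.75 and 15.5 CPM. Replicate 1 was highest, replicate 2 came next, and replicate 5 was lowest. The mean was 15.7 ± 5.51 CPM (SD, n = 6), from 204 to 580 counts per library. The pseudogene Gm7658 lies inside Kcnq5 on the same strand, overlaps no exon of the longest-coding Kcnq5 transcript, and had its own mean of 8.58 ± 0.842 CPM (SD, n = 6).

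Kcnq3 (chromosome 15, 65986374 to 66286636, minus strand), whose subunit is known mainly from mixed channels with other KCNQ subunits, was lower. Its level in replicates 1 to 6 was 4.14, 1.50, 4.89, 2.59, 2.72 and 2.92 CPM, with a mean of 3.13 ± 1.21 CPM (SD, n = 6). Replicates 3 and 1 were high, replicate 2 was low, and the other 3 were close together. Every Kcnq3 value was below every Kcnq5 value. The antisense gene Gm27242 overlaps Kcnq3, including 807 exon bases of the longest-coding Kcnq3 transcript, and was listed at 0 counts in all 6 libraries. How reads in this overlap were counted is not given in the sources used here.

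Hcn2 (chromosome 10, 79716634 to 79736108, plus strand) encodes a subunit that responds strongly to cyclic AMP and is known for its role in nociceptive neurons. Its level in replicates 1 to 6 was 7.84, 7.88, 10.5, 9.72, 5.49 and 10.4 CPM. Replicates 3, 6 and 4 were high and replicate 5 was lowest. The mean was 8.63 ± 1.93 CPM (SD, n = 6), with 115 to 227 counts. Polrmt lies 16 bases beyond the end of Hcn2 on the other strand and averaged 20.1 ± 1.80 CPM (SD, n = 6). The strand setting of the counting is not given in the sources used here, so reads past either gene's end cannot be assigned with certainty.

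Hcn3 (chromosome 3, 89146775 to 89160284, minus strand), whose subunit responds little to cyclic AMP, had 5.09, 3.46, 6.00, 4.63, 2.58 and 5.21 CPM in replicates 1 to 6. Replicate 3 was highest and replicates 2 and 5 were lowest. The mean was 4.50 ± 1.26 CPM (SD, n = 6), from 54 to 130 counts. In the deposited table its end overlaps the antisense gene Pklr by 41 bases, the Hcn3 transcript of GENCODE reaches further and has 742 exon bases within Pklr, and Pklr had at most 1 count in any library.

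Hcn4 (chromosome 9, 58822949 to 58863175, plus strand), best known as the main pacemaker subunit of the sinoatrial node, had 4.79, 2.00, 4.34, 2.79, 2.72 and 2.77 CPM in replicates 1 to 6. Replicates 1 and 3 were high, replicate 2 was low and replicates 4, 5 and 6 were almost equal, a layout much like that of Kcnq3. The mean was 3.24 ± 1.08 CPM (SD, n = 6), from 44 to 110 counts.

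**Figure D1:**
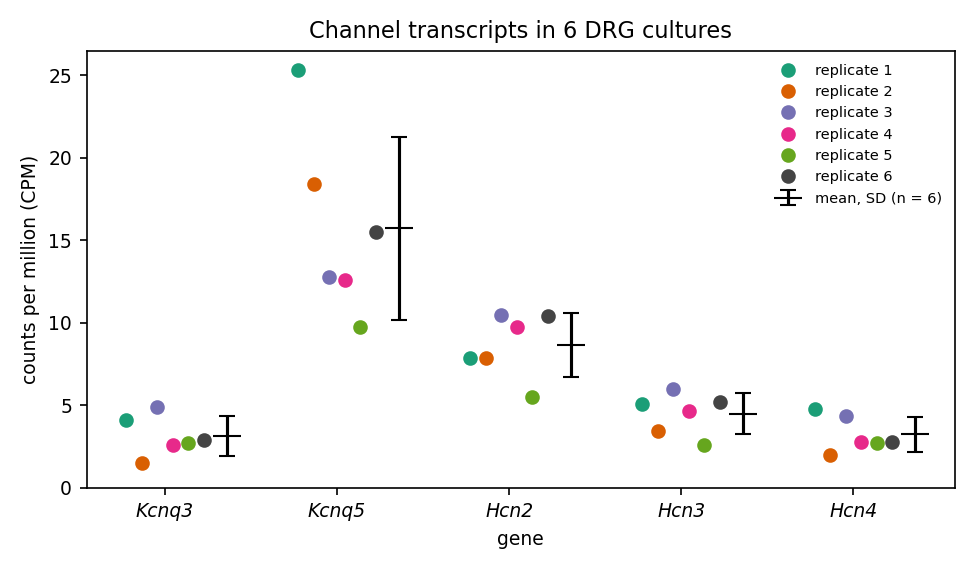
CPM (vertical axis) of the 5 channel genes (horizontal axis), 1 coloured point per culture, with the mean and SD over 6 cultures in black. Kcnq5 spans 9.75 to 25.3 CPM, and the highest Kcnq3 value, 4.89 CPM, lies below its lowest.

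A gene's count grows with its transcript length, so levels of different genes were compared as CPM per kilobase (kb) of the combined exon length in the deposited table. On this scale the order was Hcn2 at 2.70 ± 0.605, Kcnq5 at 2.04 ± 0.714, Hcn3 at 1.19 ± 0.333, Hcn4 at 0.492 ± 0.164 and Kcnq3 at 0.264 ± 0.102 CPM per kb (SD, n = 6 for each). All 5 lay in the lower part of the 14998 genes that passed the filter on low counts. Hcn2 stood above 28.0% of those genes, Kcnq5 above 22.9%, Hcn3 above 15.3%, Hcn4 above 5.87% and Kcnq3 above 2.35%.

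The 10 differences between genes were taken within each library as log2(CPM per kb + 0.1) and tested by exact permutation of their signs (two-sided), which with 6 libraries cannot give a p below 0.0312. Of the 10, 9 pointed the same way in all 6 libraries (exact permutation p = 0.0312 each, Benjamini-Hochberg adjusted over the 10 p = 0.0347). Hcn2 exceeded Hcn3 by 1.13 ± 0.189 and Hcn4 by 2.26 ± 0.459 on the log2 scale (SD, n = 6), and Hcn3 exceeded Hcn4 by 1.13 ± 0.347. Kcnq5 exceeded Kcnq3 by 2.54 ± 0.600. Between families, Kcnq5 exceeded Hcn3 by 0.71 ± 0.483, and Hcn4 exceeded Kcnq3 by 0.70 ± 0.130. The one neighbouring pair in the order that was not separated beyond its spread was Hcn2 and Kcnq5, with 0.42 ± 0.517 and Hcn2 higher in 5 of 6 libraries (exact permutation p = 0.0938, adjusted p = 0.0938). With a pseudocount of 1 the 9 differences were smaller, from 0.235 for Hcn4 over Kcnq3 to 1.54 for Hcn2 over Kcnq3, and all still passed (exact permutation, adjusted p = 0.0347). In replicate 1, Kcnq5 was higher than Hcn2, at 3.27 against 2.45 CPM per kb.

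The order across families depended on the length used. Kcnq3 has 11831 bases of combined exon, of which the longest coding sequence takes 2622, and Kcnq5 has 7718 with 2859 coding, whereas Hcn2 has 3195 with 2592 coding. Per kb of coding length, a choice made after seeing the data, Kcnq5 came first at 5.50 ± 1.93, followed by Hcn2 at 3.33 ± 0.746, Hcn3 at 1.92 ± 0.537, Kcnq3 at 1.19 ± 0.460 and Hcn4 at 0.897 ± 0.299 CPM per kb (SD, n = 6). The counts were still those of all exons, coding or not, so this measure rises with the noncoding share of a gene's exons. On it, Kcnq5 exceeded Hcn2 in place of the reverse (-0.67, exact sign-flip permutation, adjusted p = 0.0312). Kcnq3 likewise exceeded Hcn4 (-0.35, exact sign-flip permutation, adjusted p = 0.0312). The order of Hcn2, Hcn3 and Hcn4, and that of Kcnq5 and Kcnq3, was the same with both lengths.

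**Figure D2:**
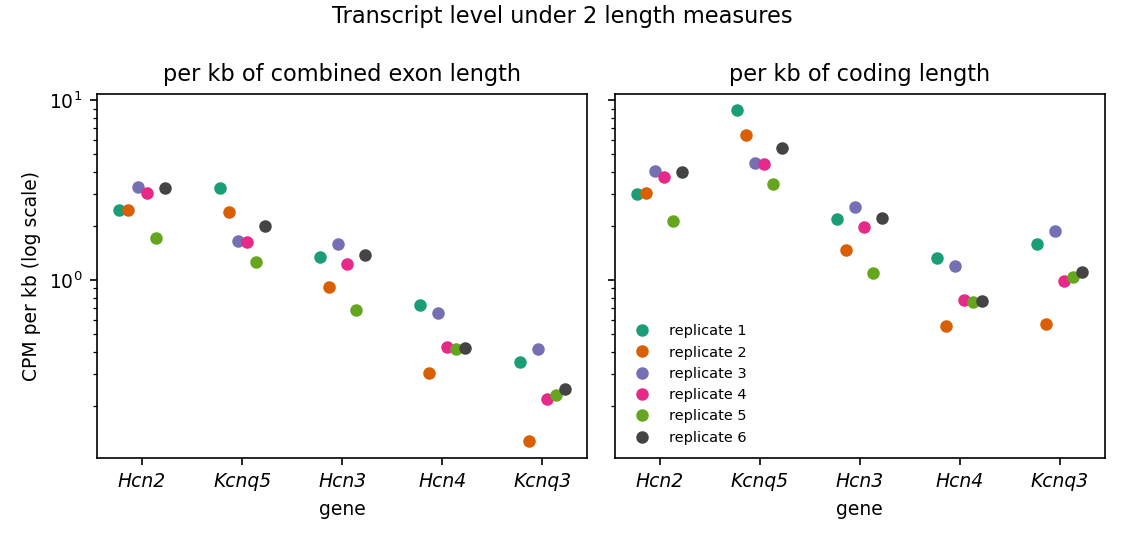
Level of the 5 genes in CPM per kb on a log axis, 1 coloured point per culture, with the combined exon length on the left and the coding length on the right. Counts of all exons, coding or not, entered both sides. Hcn2 stands at 2.70 and Kcnq5 at 2.04 on average on the left, whereas Kcnq5 stands at 5.50 and Hcn2 at 3.33 on the right.

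Shares of summed CPM per kb were also computed within each library, over the genes named only. Of Kcnq3 and Kcnq5 together, Kcnq5 made up 87.9% ± 5.08 (SD, n = 6), from 80.1% in replicate 3 to 94.9% in replicate 2. Of Hcn2, Hcn3 and Hcn4 together, Hcn2 made up 61.7% ± 4.61, Hcn3 26.9% ± 2.17 and Hcn4 11.4% ± 3.39 (SD, n = 6). The Hcn3 share kept within 24.3% to 29.8%, while that of Hcn4 ranged from 8.26% in replicate 2 to 16.1% in replicate 1. The depth behind these shares is limited, since Kcnq3 and Hcn4 had at most 106 and 110 counts in any library; the SD between replicates includes that counting error.

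Kcnq1, a KCNQ gene best known from heart and epithelia, had 18 counts in replicate 5 and at most 1 count in any other library.

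Each of the 5 genes varied between cultures by more than counting noise. Spread was measured with a chi-square test over all genes, in which expected counts followed library sizes scaled by the trimmed mean of M-values (TMM). It called 76.3% of the 14998 tested genes at a Benjamini-Hochberg adjusted p under 0.05. All 5 members were among them (adjusted chi-square p from 7.92e-46 for Kcnq5 to 2.08e-06 for Hcn3), a share to be read against that background, since most tested genes vary in this sense. The ratio of the highest to the lowest CPM was 3.26 for Kcnq3, 2.59 for Kcnq5, 2.39 for Hcn4, 2.33 for Hcn3 and 1.91 for Hcn2. The coefficient of variation was 38.6% for Kcnq3, where counting alone would give 12.2%, and 35.0% against 5.42% for Kcnq5. For Hcn2 it was 22.4% against 7.36%, for Hcn3 27.9% against 10.2% and for Hcn4 33.3% against 12.0%. The biological coefficient of variation estimated per gene with edgeR, which removes counting noise, was 0.343 for Kcnq3 and 0.308 for Kcnq5, where genes of like abundance had 0.293 and 0.224. For Hcn2, Hcn3 and Hcn4 it was 0.235, 0.278 and 0.297, against 0.262, 0.288 and 0.293.

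The layout over cultures differed between the genes. Replicate 5 was lowest for Kcnq5, Hcn2 and Hcn3, and replicate 2 for Kcnq3 and Hcn4. As a description over the 6 libraries, Pearson's r of log2 CPM was 0.94 between Kcnq3 and Hcn4 and 0.89 between Hcn2 and Hcn3, and between 0.04 and 0.62 for the other 8 pairs. The KCNQ pair itself had r = 0.04. All points come from the same 6 libraries and share their cell composition.

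Whether the genes followed the neuronal or the fibroblast content of a culture was examined with 10 relations, each gene against the neuron score and the fibroblast score. A score is the mean log2(TMM-scaled CPM per kb + 0.1) of the marker list, 12 genes such as Tubb3, Stmn2 and Prph for neurons and 6 such as Col1a1, Pdgfra and Dcn for fibroblasts. The neuron score was 5.46, 4.81, 5.68, 5.14, 4.56 and 5.33 in replicates 1 to 6, and the fibroblast score 4.50, 5.75, 5.76, 6.75, 7.52 and 5.51. Replicate 5 had the lowest neuron (4.56) and glial lineage (7.17) scores and the highest fibroblast (7.52), mural (3.43), endothelial (1.44) and macrophage (2.37) scores, and its sensory subtype score of 2.20 was the second lowest.

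Over all 6 libraries, Hcn3 had the highest correlation of the 5 genes with the neuron score; without replicate 5, Kcnq3 was higher, at 0.986 against 0.973. For Hcn3, Pearson's r was 0.97 over the 6 libraries (exact permutation p = 0.00278, adjusted over 10 relations p = 0.0278) and Spearman's rho was 0.94 (exact permutation p = 0.0167, adjusted p = 0.0833). With the 2 libraries of most extreme score left out (replicates 3 and 5), r was 0.97. The rank measure did not pass after adjustment. With any 1 library left out r stayed between 0.972 and 0.978, and the adjusted exact permutation p lay between 0.0833 and 0.167. The smaller set has fewer pairings and so a higher smallest p, and this rise in p does not by itself show a weaker relation. The SD of log2 Hcn3 over cultures was 0.407, and that of Hcn3 relative to the neuron score was 0.0991, against 0.344 relative to the glial lineage score. Counting alone would give Hcn3 a coefficient of variation of 10.2%, a larger spread than a log2 SD of 0.0991. The counts therefore cannot resolve so close a relation.

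Relations of the other genes with the neuron score did not pass. For Kcnq3 r was 0.78 and rho 0.83 (exact permutation p = 0.0639 and 0.0583, adjusted p = 0.16 and 0.146), and for Hcn4 r was 0.77 and rho 0.89 (exact permutation p = 0.0833 and 0.0333, adjusted p = 0.167 and 0.111). Without replicates 3 and 5, r was 0.98 for Kcnq3 and 0.87 for Hcn4. For Hcn2 r was 0.77 and rho 0.54 (exact permutation p = 0.0611 and 0.297, adjusted p = 0.16 and 0.495). Without the same 2 libraries r for Hcn2 fell to 0.21. It was 0.728 without replicate 3 alone and 0.443 without replicate 5 alone. Kcnq5 had r = 0.37 and rho = 0.43 (exact permutation p = 0.476 and 0.419, adjusted p = 0.476 and 0.524), and r = 0.30 without replicates 3 and 5.

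Of the 5 genes, Kcnq5 had the largest correlation with the fibroblast score over the 6 libraries, in the negative direction. Pearson's r was -0.91 and rho -0.94 (exact permutation p = 0.0153 and 0.0167, adjusted p = 0.0764 and 0.0833), so neither passed the correction for 10 relations. The mural and macrophage scores were also low where Kcnq5 was high. Ordered by macrophage score, the 6 cultures ran exactly opposite to their order by Kcnq5, which was not so for the fibroblast score. Relations were computed for the neuron and fibroblast scores only, so the fibroblast score is not shown to be the closest. In replicates 1 to 6 the mural score was 0.13, 0.99, 2.93, 2.60, 3.43 and 2.91, and the macrophage score -0.39, 0.22, 2.13, 2.23, 2.37 and 0.65. The glial lineage score went the other way, at 7.74, 7.76, 7.57, 7.44, 7.17 and 7.51. It was highest in replicates 1 and 2 and lowest in replicate 5. The part of these scores in the relation was not tested. Without replicates 1 and 5, r was -0.54. The spread of log2 Kcnq5, an SD of 0.474, was 0.302 relative to the glial lineage score and 0.504 relative to the neuron score. The other 4 genes had r between -0.70 and -0.37 and rho between -0.54 and -0.26 with the fibroblast score, with exact permutation p from 0.139 to 0.658 and adjusted p from 0.231 to 0.658. Without replicates 1 and 5, their r lay between -0.147 and -0.057. The labels name no culture or sequencing batch, so within-batch values cannot be given. Whether the difference between the 5 genes in their relation to a score is larger than chance was not tested.

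**Figure D3:**
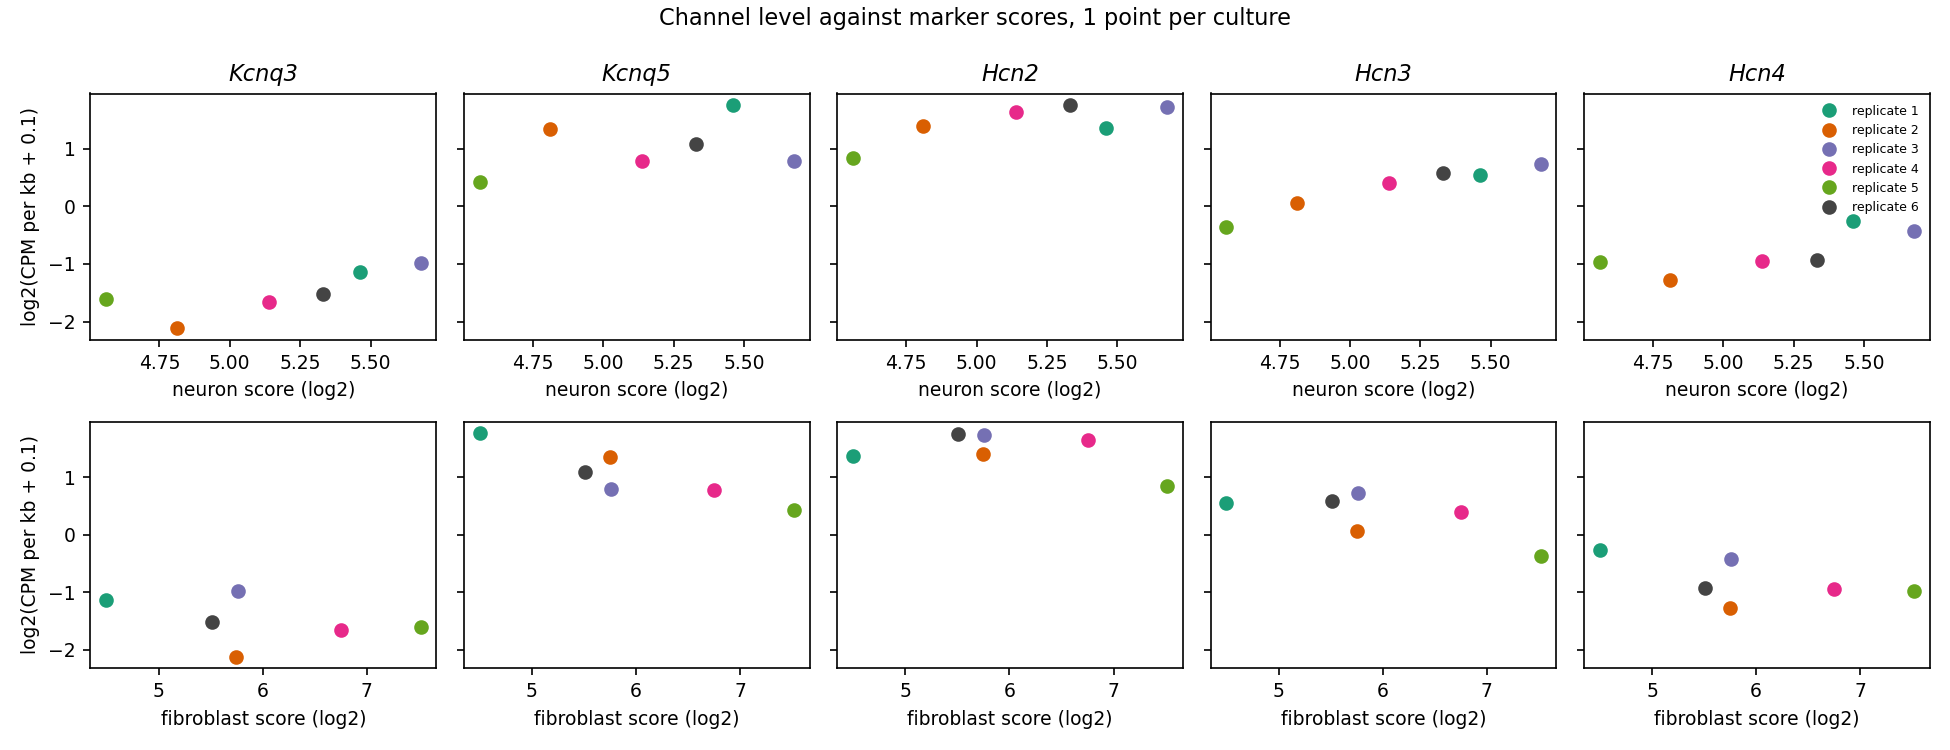
Level of each gene as log2(TMM-scaled CPM per kb + 0.1) on the vertical axis against the neuron score (upper row) and the fibroblast score (lower row), 1 coloured point per culture. Hcn3 rises with the neuron score (r = 0.97). Kcnq5 is lower where the fibroblast score is higher (r = -0.91, adjusted exact permutation p = 0.0764). It is also lower where the mural score is higher, from 0.13 in replicate 1 to 3.43 in replicate 5, and where the macrophage score is higher.

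The genes with the most similar layout over the 6 libraries were sought among 11933 genes with a mean of at least 5 CPM, by Pearson's r of log2(TMM-scaled CPM + 0.5). For Hcn3 they were Cntn2 (r = 0.9986, 32.8 ± 12.1 CPM), Npy2r (r = 0.9943, 8.03 ± 2.78 CPM) and Sez6l2 (r = 0.9942, 19.0 ± 3.99 CPM). For Kcnq3 they were Nrsn1, Dnm3 and Lrrn1, with r from 0.9856 to 0.9917. Kcnq5 came closest to Myo16 and Trappc10 (r = 0.998 and 0.9975). Hcn2 was most like Becn1, Dock9 and Pcdh10 (r from 0.9851 to 0.9902), and Hcn4 most like Slc9a9 and Rnf11 (r = 0.9975 and 0.9972). With 6 libraries and so many genes, high values are common: r was over 0.9 for 134 genes with Hcn4, 151 with Kcnq3, 218 with Hcn2, 316 with Hcn3 and 444 with Kcnq5.

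The partners of KCNQ subunits were described from a list of 14 genes, of which 13 were in the table by symbol. Of these, 8 were at or above 1 CPM in all 6 libraries and 9 of 9 tested varied beyond counting noise, against the background of 76.3%. Over all 13, including untested genes of low count, the median level was 4.65 CPM per kb. The median of 7.20 over all tested genes leaves such genes out, so the 2 are not on the same footing. Calmodulin, which is a constant part of KCNQ channels, was abundant: Calm2 and Calm3 stood at 214 ± 18.8 and 122 ± 8.68 CPM per kb (SD, n = 6). Ank3, the ankyrin that anchors KCNQ channels at the axon initial segment and node, stood at 10.1 ± 1.57, and Sptbn4, the spectrin of the same sites, at 0.396 ± 0.140 CPM per kb. The KCNE genes encode small accessory subunits, and Kcne1 and Kcne2 had at most 2 counts in any library. Kcne4 averaged 1.94 ± 2.03 CPM, a spread as wide as its mean. The anchoring protein gene Akap5 had at most 4 counts.

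Of 13 genes of the Gq and PIP2 pathway, which governs KCNQ closure, 10 were at or above 1 CPM in all 6 libraries and 10 of 10 tested varied beyond counting noise, where 76.3% of all tested genes did. Over all 13, the median was 1.29 CPM per kb. It includes the untested genes Plcb2, Chrm1 and Chrm3, at 0.0427, 0.0212 and 0.0521 CPM per kb. It is therefore not on the same footing as the 7.20 over all tested genes. The G protein genes Gnaq and Gna11 stood at 27.8 ± 2.24 and 31.5 ± 0.835 CPM per kb (SD, n = 6). Among the phospholipase C genes, Plcb3 reached 27.3 ± 1.40 CPM per kb, whereas Plcb1 and Plcb4 stood at 0.910 ± 0.182 and 0.976 ± 0.188. Pip5k1c, a kinase that makes PIP2, stood at 11.0 ± 0.707 CPM per kb. The muscarinic receptor genes Chrm1 and Chrm3 had at most 6 and 8 counts in any library. Bdkrb2, the bradykinin receptor that can also close M-channels, averaged 5.68 ± 5.61 CPM and ranged from 31 to 346 counts.

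Of 11 genes for HCN partners, 8 were at or above 1 CPM in all 6 libraries, and 7 of 9 tested varied beyond counting noise, a share near the 76.3% of all tested genes. Over all 11, including the untested Cav3 and Lrmp, the median was 19.3 CPM per kb. The median over all tested genes was 7.20. Pex5l, which encodes TRIP8b, the neuronal auxiliary subunit that regulates their transport to the surface, stood at 13.5 ± 2.84 CPM per kb (SD, n = 6). Flna, the actin-binding filamin A, was the highest of the list at 201 ± 32.6 CPM per kb and is expressed in many cell types. Mrvi1 and Lrmp, whose proteins act on HCN4, were low: Mrvi1 averaged 5.75 ± 4.20 CPM and Lrmp had at most 22 counts. The 2 tested genes that did not pass were Kctd3 and Vapb (chi-square test, adjusted p = 0.124 and 0.217).

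All 9 adenylyl cyclase genes on the cyclic AMP list were in the table, 7 of them at or above 1 CPM in all 6 libraries, and 8 of 8 tested varied beyond counting noise, against 76.3% of all tested genes. Over all 9, including the untested Adcy4, the median was 3.90 CPM per kb. The median over all tested genes was 7.20. Adcy6 was highest at 11.1 ± 0.973 CPM per kb, followed by Adcy5 at 6.10 ± 1.05 and Adcy7 at 5.15 ± 4.14 (SD, n = 6). Adcy7 ranged from 157 to 2199 counts. Adcy1, a calcium-activated cyclase, stood at 2.92 ± 1.12, and Adcy4 and Adcy8 at 0.334 ± 0.383 and 0.323 ± 0.314 CPM per kb.

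**Figure D4:**
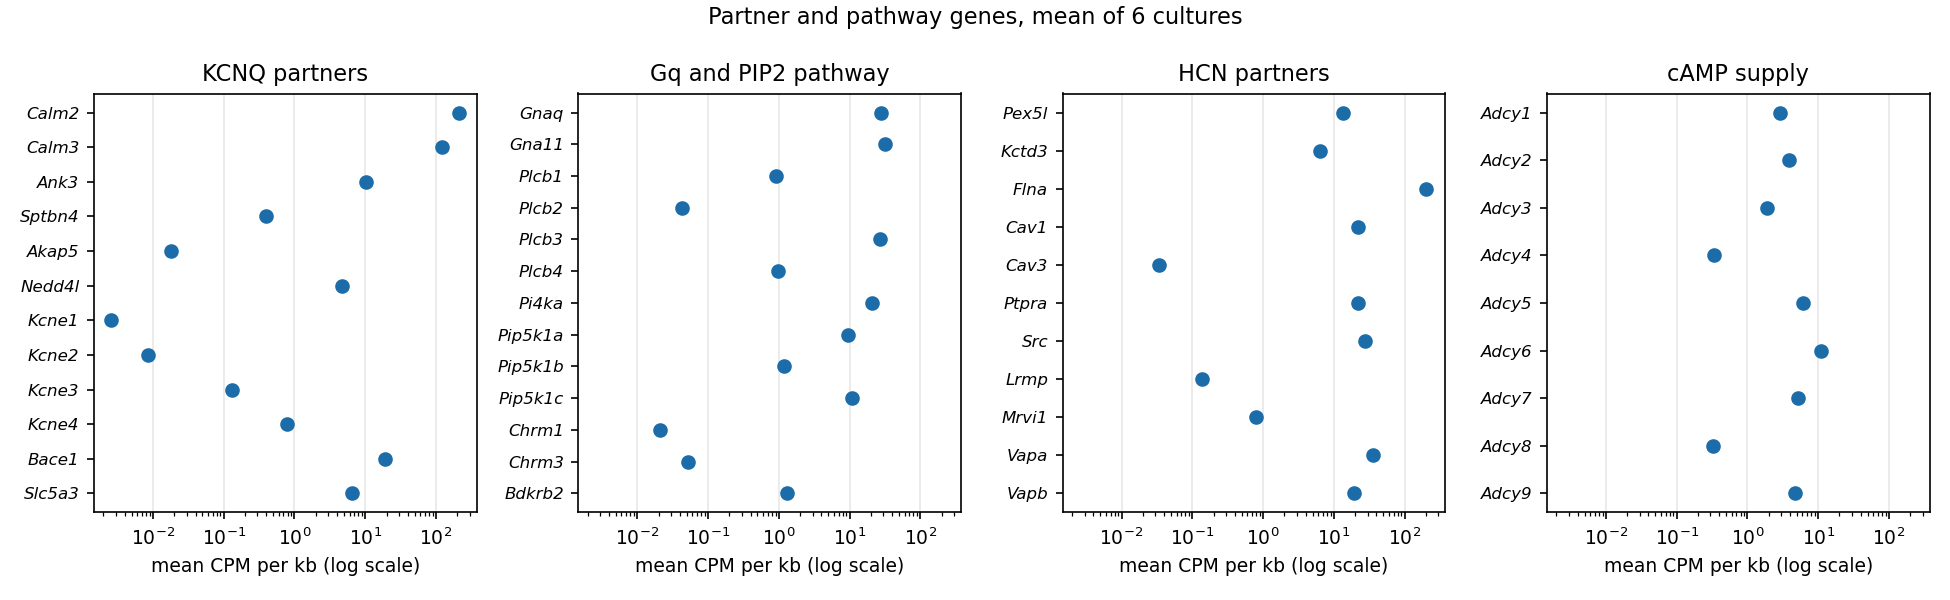
Mean level over 6 cultures in CPM per kb (log axis) of genes on the 4 lists of partners and pathway members, 1 point per gene. Calm3 and Calm2 stand at 122 and 214 CPM per kb, Pex5l at 13.5, and Chrm1 at 0.0212.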

How the data were processed

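The members and gene lists were chosen with earlier results of these data known. The deposited table gave expected counts per gene for the 6 libraries, unscaled, with fractions in 13.4% to 14.7% of values per library. The submitters' processing notes name bcl2fastq 2.20.0.422, cutadapt 2.5, STAR 2.7.2b, featureCounts 1.6.4, Subread and the build GRCm38.p6. The strand setting and the handling of multi-matching reads are not given in the sources used here. RNA integrity was at least 8.7, and libraries were stranded and poly-A selected, per the labels.

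CPM and CPM per kb of combined exon length were computed from the deposited counts, the exon length being another column of the same table. Coding lengths and sequences came from GENCODE M21. Rounded counts entered edgeR (4.0.16, in R 4.3.3), whose filterByExpr kept 14998 genes, and DESeq2 (1.42.0) gave alternative size factors. Exact tests used 64 sign patterns or 720 pairings. Genes named are the members, their families, the fixed lists, and per member the 3 most alike; some of these are not reported here. Alternatives were scaling, filter, pseudocount, length, list summary and leaving out libraries. RefSeq protein lengths were not used here.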

Additional observations from a re-analysis of the deposited data

How the results depend on the processing

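Between cultures, all 5 genes varied beyond counting noise under every scaling and filter and with any 1 library left out, but so did 50.2% of genes without the filter and 66.8% to 81% under the other settings; Kcnq5 could not be tested among genes with whole counts, where 5848 genes were called in place of 11444 because fewer were tested. A pseudocount of 1 lowered Kcnq5 minus Kcnq3 from 2.54 to 1.24, Hcn2 minus Hcn4 from 2.26 to 1.30, Hcn3 minus Hcn4 from 1.13 to 0.548 and Hcn4 minus Kcnq3 from 0.70 to 0.235, and 0.01 raised the first to 2.92, with no call changed. Without length, on CPM alone, the difference of Hcn2 from Kcnq5 reversed to -0.823 (log2), and 3 differences no longer passed: Hcn3 from Hcn4 at 0.471, Hcn3 from Kcnq3 at 0.548 and Hcn4 from Kcnq3 at 0.077. Per kb of coding length, Hcn2 minus Kcnq5 was -0.673 and Hcn4 minus Kcnq3 was -0.346. The length measure is by construction the cause of both. With 1 library left out, the sign-flip test cannot go below 0.0625, so those differences are values without a test, and none changed sign. The relation of Hcn3 with the neuron score had r from 0.972 to 0.978 with 1 library left out and no longer passed, the number of libraries being smaller. The relation of Kcnq5 with the neuron score ranged from -0.137, without replicate 5, to 0.671, and that of Hcn2 with the fibroblast score from -0.78 to 0.485, the latter without replicate 5; the cause was not tested. The planned length from RefSeq proteins was not run. Low counts, at most 130 per library for Kcnq3, Hcn3 and Hcn4, limit the precision of these genes. Conditions could not be compared, paired or unpaired, because there is a single group.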
